A study of Mus musculus with 42 samples.

Results

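The genes described are 10 members of the extracellular layer of bone morphogenetic protein (BMP) signalling, namely the ligands *Bmp2*, *Bmp4*, *Bmp5*, *Bmp6*, *Bmp7* and *Bmp10* and the secreted antagonists and modulators *Nog*, *Chrd*, *Bmper* and *Grem1*. They were found by matching the Ensembl identifiers of the count table to mouse GENCODE gene names, which gave 1 row for each of the 10 among 56953 genes. Poly-A RNA came from heart fields of 21 mouse embryos at stage E8.5i, when the heart tube bends, and each side was sequenced on its own, which gave 42 libraries. The controls were 5 *Ccdc40+/+* embryos with rightward looping (4 males and 1 female). The mutants were homozygous for the *Ccdc40lnks* allele, a chemically induced point mutation that stops the protein early, and were grouped by the direction of heart looping into 11 rightward mutants (6 males and 5 females) and 5 inverted mutants (3 males and 2 females). From the asymmetry of expression in these same embryos, the study placed part of the rightward mutants with the wild types, as situs solitus, and part in a heterotaxy cluster. The labels do not say which embryo is which, so the rightward mutants are a single group here that mixes both phenotypes, and its means and tests run over both. CCDC40 is a structural component of motile cilia, the allele is carried by every cell of a mutant, and the line was kept on an inbred background. The tissue was taken from the cardiac region without the tube itself and split into its left and right parts, and each library therefore holds a mixture of tissues.

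BMPs are secreted dimers that bind pairs of type I and type II receptors and pass the signal on through SMAD1, SMAD5 and SMAD9. Noggin, chordin and gremlin 1 bind the ligands outside the cell and keep them from their receptors, whereas BMPER, a relative of chordin, binds BMPs and can dampen or promote signalling. In the early embryo, BMP ligands from the lateral and cranial mesoderm and from ectoderm take part in the induction of heart muscle and in left-right patterning, and noggin and chordin come largely from the node and notochord. In a bulk library, fewer cells of one type and less RNA per cell cannot be told apart.

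The libraries held between 36073684 and 62970327 counts. *Ccdc40* was at 15.2 to 26.5 CPM (counts scaled to a common effective library size) in wild types, at 8.83 to 14.6 in rightward mutants and at 9.99 to 14.8 in inverted mutants, so that its level followed the genotype labels. All 8 heart field markers examined (*Isl1*, *Nkx2-5*, *Tbx5*, *Hand2*, *Gata4*, *Mef2c*, *Foxf1* and *Osr1*) had counts in every library. A pair of embryos stood apart in their tissue markers. Rightward mutant 2_2 had the lowest summed heart muscle markers on its right side, at 291 CPM against a right-sided median of 3134 CPM in its group, and wild type 10_1 had the highest neural tube markers on its right side, at 135 CPM against a median of 30.2 CPM. Calls and group means that moved without these embryos are given beside the main values for *Bmp2*, *Bmp4*, *Bmp7* and *Bmper*.

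The ligands *Bmp7*, *Bmp4*, *Bmp2* and *Bmp5* were the most abundant of the 10 genes per length, and *Bmp6*, *Bmp10* and *Chrd* the least. Per kilobase of exon and over the 42 libraries, *Bmp7* was at 18.4 ± 3.70 CPM, *Bmp4* at 12.3 ± 3.12, *Bmp2* at 7.59 ± 2.70 and *Bmp5* at 5.31 ± 0.942 (mean ± SD). Among the antagonists, the level per kilobase was 1.93 ± 0.883 CPM for *Nog*, 1.98 ± 0.667 for *Bmper*, 1.30 ± 0.430 for *Grem1* and 0.256 ± 0.135 for *Chrd*. The remaining ligands stood at 0.579 ± 0.167 CPM per kilobase for *Bmp6* and 0.390 ± 0.175 for *Bmp10*, a ligand of the heart muscle itself. The intervals of 1 SD separated the first 4 ligands from *Nog*, *Bmper* and *Grem1*, and these 3 from *Bmp6*, *Bmp10* and *Chrd*. The intervals of neighbours within each of these tiers overlapped. Over the 42 libraries, the level of *Bmp10* ran from 0.151 to 4.11 CPM, with 2_2 lowest on both sides and 0.727 CPM as the lowest value of any other embryo, and that of *Bmp5* ran from 12.2 to 30.8 CPM. The library kit does not mark strand. *Chrd* shares sequence on the opposite strand with *Thpo*, which has 98.3% of its total count, and *Bmp6* overlaps the far more abundant *Txndc5*, so the values of *Chrd* and *Bmp6* are less certain than the others. *Bmp4* overlaps *Gm15222*, an opposite long noncoding RNA with 8.11% of its count.

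**Figure D1:**
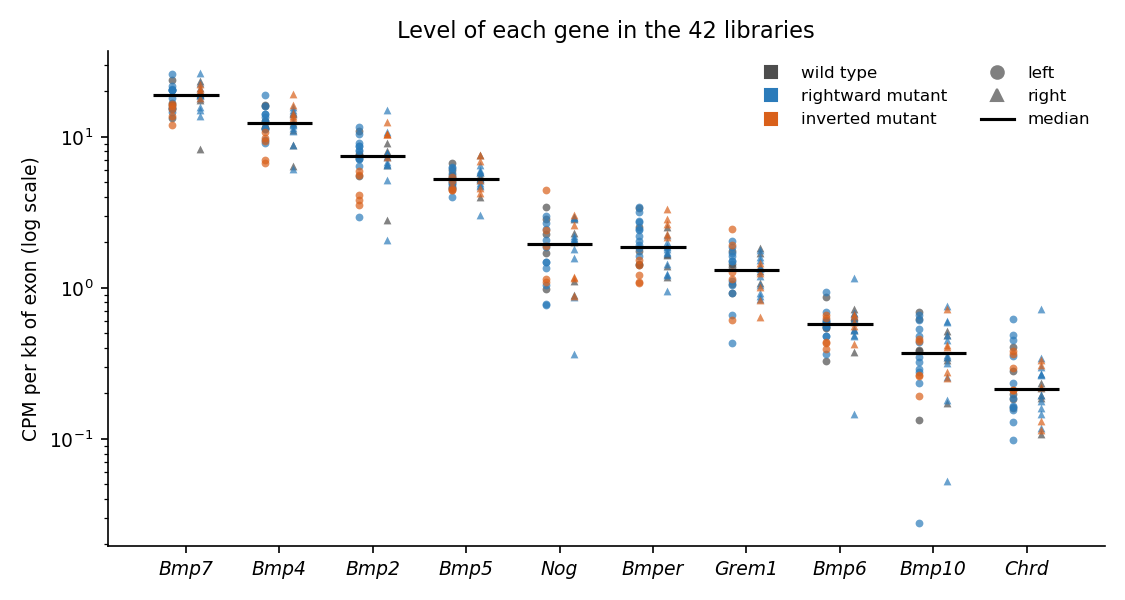
Level of the 10 genes in every library, as CPM per kilobase of exon on a log axis. Circles are left and triangles right libraries, colours give the group, and bars give the median, which falls from 19.0 for *Bmp7* to 0.214 for *Chrd*.

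The first question was whether any of these genes differed between the sides in wild types. None of the 10 was called: 0 passed an adjusted p of 0.05 in the paired edgeR test (right over left, embryo as a block). The background over all 23182 genes tested was 0% (0 genes adjusted, 639 genes at an unadjusted p under 0.05, of which 0 were members). The study reports genes with a consistent side in these wild types, so a lack of calls here does not show that the sides were equal. DESeq2 called 20 genes, again with 0 members. *Bmp2* was at 35.8, 50.4, 34.97, 33.4 and 25.6 CPM on the left of wild types 7_1, 8_1, 10_1, 17_7 and 22_4 and at 36.2, 29.9, 13.0, 37.2 and 42.5 CPM on the right. The right side was higher in 3 of 5 embryos and the sides overlapped. *Bmper* was at 6.99, 16.6, 8.54, 6.93 and 12.3 CPM on the left of the same embryos, in the same order, and at 8.21, 8.12, 5.77, 6.83 and 12.3 CPM on the right. It was higher on the left in 4 of 5, by a margin that was small in 17_7 and 22_4. The mean log2 ratio of right over left was -0.25 ± 0.84 (SD, n = 5) for *Bmp2*, -0.40 ± 0.65 for *Bmp4* and -0.02 ± 0.64 for *Bmp7*. These means rested on single embryos. Without 10_1 they were 0.04, -0.16 and 0.23, and without 22_4 they were -0.50, -0.57 and -0.16. That of *Bmper* was -0.28 ± 0.51, or -0.20 without 10_1 and -0.09 without 8_1. For *Bmp4* it ranged from -1.35 in 10_1 to 0.29 in 22_4, and for *Bmp7* from -1.0045 in 10_1 to 0.53 in 22_4. Neither had a side common to all 5 embryos, and in 7_1 the ligands parted, with -0.52 for *Bmp4* and 0.30 for *Bmp7*.

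In rightward mutants, 0 of 10 members passed, against a background of 0.0263% (6 of 22795 genes). *Bmper* came nearest. On the left it was at 8.01, 11.9 and 16.7 CPM (lowest, median and highest of 11) and on the right at 4.65, 8.47 and 10.996 CPM. The left was higher in 10 of 11 embryos, with 19_4 as the exception, although the ranges overlapped. The fitted log2 fold change was -0.57 (SE 0.12, unadjusted p = 0.00034, edgeR adjusted p = 0.43). DESeq2 called it (adjusted p = 0.0021), as did edgeR once 19_4 was left out (adjusted p = 0.022). The means of the ligands were closer to 0, and their difference from *Bmper* was not tested. *Bmp2* was at 13.6, 37.8 and 53.6 CPM on the left (lowest, median and highest) and at 9.56, 34.02 and 69.96 on the right. Its mean log2 ratio was -0.15 ± 0.37 (SD, n = 11), that of *Bmp4* was -0.11 ± 0.48 and that of *Bmp7* was -0.03 ± 0.36. Without 2_2 these means were -0.11, -0.03 and 0.03, and without 19_4 they were -0.22, -0.19 and -0.08. The right side was higher in 3 of 11 embryos for *Bmp2*, in 4 for *Bmp4* and in 5 for *Bmp7*. The difference in asymmetry between rightward mutants and wild types was tested directly over all 42 libraries, and 0 of 10 members passed (background 0%, 0 of 26335 genes, with 800 at an unadjusted p under 0.05 and 0 members among them, 0 genes by DESeq2 and 2 by the newer quasi-likelihood method of edgeR).

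In inverted mutants, 4 of the 10 genes were higher on the right, namely the ligands *Bmp2*, *Bmp4* and *Bmp7* and the modulator *Bmper*. The background in this comparison was 2.04% of 22960 genes (468 genes), and 1.72% for right-sided genes (395 genes). All 4 were higher on the right in 5 of 5 embryos, and the left and right ranges of each did not overlap, as was the case, with the right above the left, for 1.99% of the genes tested.

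*Bmp2* (chr2:133394079-133404816 in GRCm39, plus strand), a ligand expressed in the myocardium at the atrioventricular boundary, was at 27.7, 25.8, 16.4, 19.0 and 17.6 CPM on the left of inverted mutants 2_7, 4_6, 10_3, 18_2 and 32_2. On the right it was at 48.6, 48.4, 33.8, 57.7 and 48.6 CPM in the same order. The lowest right side, that of 10_3, was thus above the highest left side, that of 2_7. The fitted log2 fold change was 1.17 (SE 0.12, adjusted p = 0.0056), a 2.25-fold difference.

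*Bmper* (chr9:23134325-23396509, plus strand) was at 5.95, 7.47, 5.31, 6.96 and 5.36 CPM on the left and at 13.9, 12.9, 11.2, 16.3 and 10.6 CPM on the right of these embryos. Its log2 ratios were the most even of the 10 genes, from 0.78 to 1.22. The fitted log2 fold change was 1.07 (SE 0.11, adjusted p = 0.0048), or 2.10-fold, opposite in sign to that in rightward mutants.

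*Bmp4* (chr14:46620250-46636745, minus strand), a ligand of lateral plate mesoderm and ectoderm, was at 51.4, 56.8, 36.7, 49.0 and 35.3 CPM on the left and at 75.3, 71.5, 70.3, 101 and 85.3 CPM on the right. Its log2 ratio was lowest in 4_6, at 0.33, and highest in 32_2, at 1.27. The fitted log2 fold change was 0.84 (SE 0.13, adjusted p = 0.020).

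*Bmp7* (chr2:172709805-172782410, minus strand), which pairs with other BMPs in heterodimers, was at 71.1, 72.8, 67.7, 60.3 and 53.0 CPM on the left and at 93.1, 90.3, 79.5, 98.4 and 87.5 CPM on the right. It had the smallest change of the 4, with a log2 fold change of 0.48 (SE 0.08, adjusted p = 0.029). The calls of *Bmp2* and *Bmper* held without any 1 embryo, with adjusted p of at most 0.032 and 0.026. Those of *Bmp4* and *Bmp7* were lost without 18_2 (adjusted p = 0.076 and 0.097) and without 32_2 (0.065 and 0.12), that of *Bmp7* also without 2_7 (0.065) and without 4_6 (0.056), and in the 3 male embryos alone 0 of the 4 passed.

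**Figure D2:**
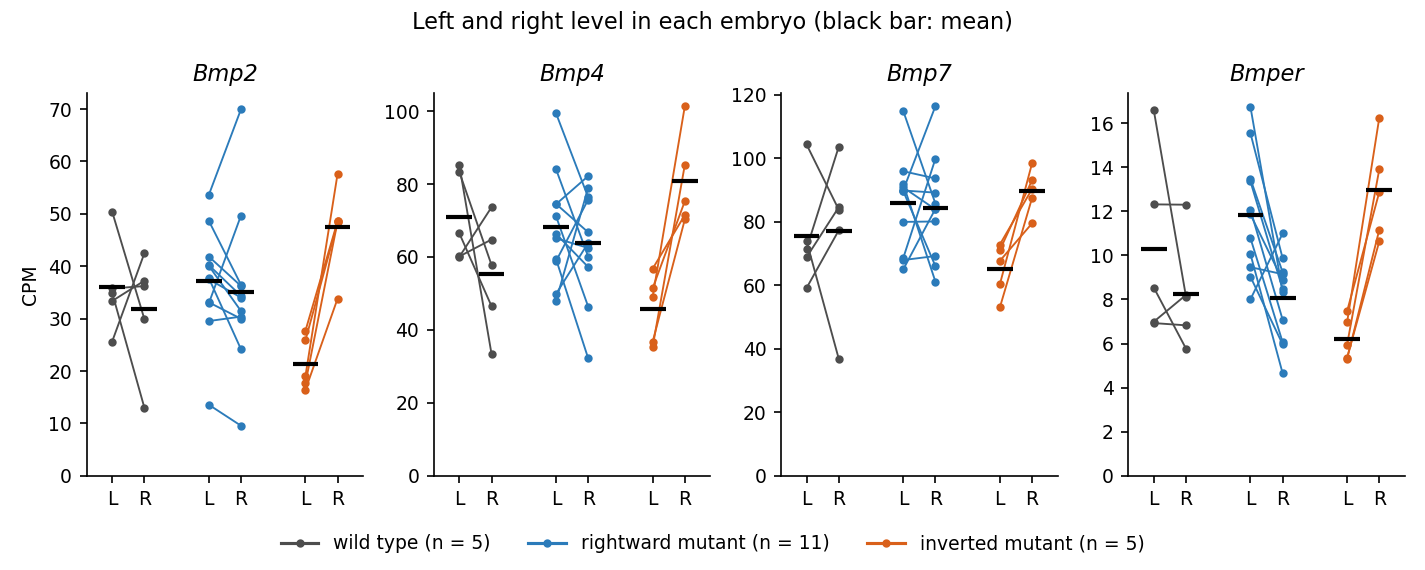
CPM of *Bmp2*, *Bmp4*, *Bmp7* and *Bmper* on the left (L) and right (R), from 0, with a line for each embryo and a black bar at the mean of each side. In the 5 inverted mutants all lines rise from left to right without overlap, whereas in wild types and rightward mutants they cross, and for *Bmper* 10 of 11 rightward mutants fall.

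The sequences just before the start sites of the 4 genes that moved together are shown so that their base composition and short motifs can be compared. Each is the 200 bases before the first annotated base of the canonical transcript (or of the gene, where that lies within 200 bases) in GRCm39, read 5′ to 3′ on the strand of the gene, from GENCODE starts. The annotated *Bmp4* gene begins further upstream, at base 46636745, so its window lies inside the gene, whereas the other windows lie outside theirs. Capitals mark a match on either strand to GGCGCC, a GC element bound by SMAD1 and SMAD5, to the SMAD box CAGAC, to the GATA site AGATAA or to the T-box core site AGGTGT, none of which overlaps another here.
*Bmp2* (chr2:133393879-133394078, plus strand): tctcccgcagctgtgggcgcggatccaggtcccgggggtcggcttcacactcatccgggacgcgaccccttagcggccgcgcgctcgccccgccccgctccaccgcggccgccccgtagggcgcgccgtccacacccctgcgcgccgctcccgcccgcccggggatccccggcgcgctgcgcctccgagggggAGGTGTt
*Bmp4* (chr14:46628127-46628326, minus strand): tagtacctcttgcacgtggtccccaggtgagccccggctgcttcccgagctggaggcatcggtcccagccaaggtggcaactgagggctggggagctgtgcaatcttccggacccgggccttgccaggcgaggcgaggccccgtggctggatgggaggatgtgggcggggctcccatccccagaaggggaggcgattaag
*Bmp7* (chr2:172782411-172782610, minus strand): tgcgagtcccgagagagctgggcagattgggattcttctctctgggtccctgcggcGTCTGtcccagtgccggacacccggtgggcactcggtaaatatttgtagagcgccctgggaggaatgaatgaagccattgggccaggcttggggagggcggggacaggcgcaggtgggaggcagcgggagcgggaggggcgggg
*Bmper* (chr9:23134125-23134324, plus strand): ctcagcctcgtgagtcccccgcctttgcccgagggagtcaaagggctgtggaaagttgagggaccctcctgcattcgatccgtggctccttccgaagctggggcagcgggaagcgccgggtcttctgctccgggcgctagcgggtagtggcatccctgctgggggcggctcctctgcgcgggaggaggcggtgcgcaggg
All 4 windows were rich in G and C, at 79.5% for *Bmp2*, 67.5% for *Bmp4*, 66% for *Bmp7* and 69% for *Bmper*. *Bmp2* held 1 match to AGGTGT and *Bmp7* held 1 match to CAGAC, read on the opposite strand. The windows of *Bmp4* and *Bmper* held no match, so the 4 windows shared none of these motifs. Among windows of the same length before 21663 protein-coding genes, 9.95% held AGGTGT, 34.5% CAGAC, 7.39% AGATAA and 8% GGCGCC.

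Tissue markers moved with the same embryos. The 7 heart muscle markers together were higher on the right in 5 of 5 inverted mutants, at log2 ratios from 0.68 to 1.41, and 5 of the 7 were called (*Ttn*, *Actc1*, *Myh6*, *Tnnt2* and *Myl7*). Of 8 heart field markers, 4 were called higher on the right (*Nkx2-5*, *Tbx5*, *Mef2c* and *Osr1*), and their sum was higher in 5 of 5. The 4 atrioventricular canal markers had log2 ratios of their sum from 0.32 to 1.53, with *Gal* and *Rspo3* called, the 4 sinus venosus and proepicardium markers from 0.29 to 0.55, with *Shox2* called, and the 5 surface ectoderm markers from 0.03 to 0.91, with none called. Neural tube markers were lower on the right in 5 of 5, at log2 ratios from -2.80 to -0.61, with *Pax6* and *Olig2* called, and somite markers were lower in 4 of 5. Notochord, foregut, blood and endothelial markers gave 0 calls. The sum of endothelial markers was higher on the right in 5 of 5, at log2 ratios from 0.07 to 0.24, and that of foregut markers in 4 of 5. Those of blood and notochord markers were higher on the right in 3 and 2 of 5. None of the muscle or heart field markers was at 0 in any library. The part of these markers in the result on the BMP genes was not tested.

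Across all 21 embryos, the ratio of the summed muscle markers and that of the gene correlated at r = 0.93 for *Bmp7*, 0.87 for *Bmp2*, 0.87 for *Bmp4* and 0.77 for *Bmper*. In the 16 rightward embryos alone, r was 0.92, 0.86, 0.84 and 0.75 in the same order. Muscle was not the list with the highest r for every gene. *Bmp7* had r = 0.96 with the heart field markers, *Bmp4* had 0.95 with the surface ectoderm markers and 0.91 with those of the atrioventricular canal, and *Bmp2* had 0.89 with surface ectoderm and 0.88 with heart field, whereas for *Bmper* the muscle list had the highest positive r. The r with somite markers was -0.79 for *Bmp2*, -0.80 for *Bmp4*, -0.79 for *Bmp7* and -0.79 for *Bmper*, and that with neural tube markers was -0.72, -0.70, -0.78 and -0.65 in the same order. These are descriptions, since both values of an embryo come from the same pair of libraries. A pair of rightward embryos, 22_4 and 19_4, had muscle ratios within the range of the inverted mutants, but they were matched on muscle alone. For example, the somite log2 ratio of 22_4 was 0.80, against -1.42 to 0.20 in inverted mutants. The heart field log2 ratio of 19_4 was 0.91, against 0.41 to 0.86. The part of other tissues in the values that follow was not tested. In wild type 22_4, the log2 ratio of muscle markers was 1.02, that of *Bmp7* 0.53, that of *Bmp2* 0.73, that of *Bmp4* 0.29 and that of *Bmper* -0.0018. In rightward mutant 19_4, the same log2 ratios were 1.38 for muscle markers, 0.54 for *Bmp7*, 0.59 for *Bmp2*, 0.72 for *Bmp4* and 0.46 for *Bmper*. Both embryos lay inside the range of the inverted mutants for *Bmp7* (0.23 to 0.72) and below it for *Bmp2* (0.81 to 1.60) and *Bmper* (0.78 to 1.22). For *Bmp4* (0.33 to 1.27), 19_4 lay inside and 22_4 just below.

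**Figure D3:**
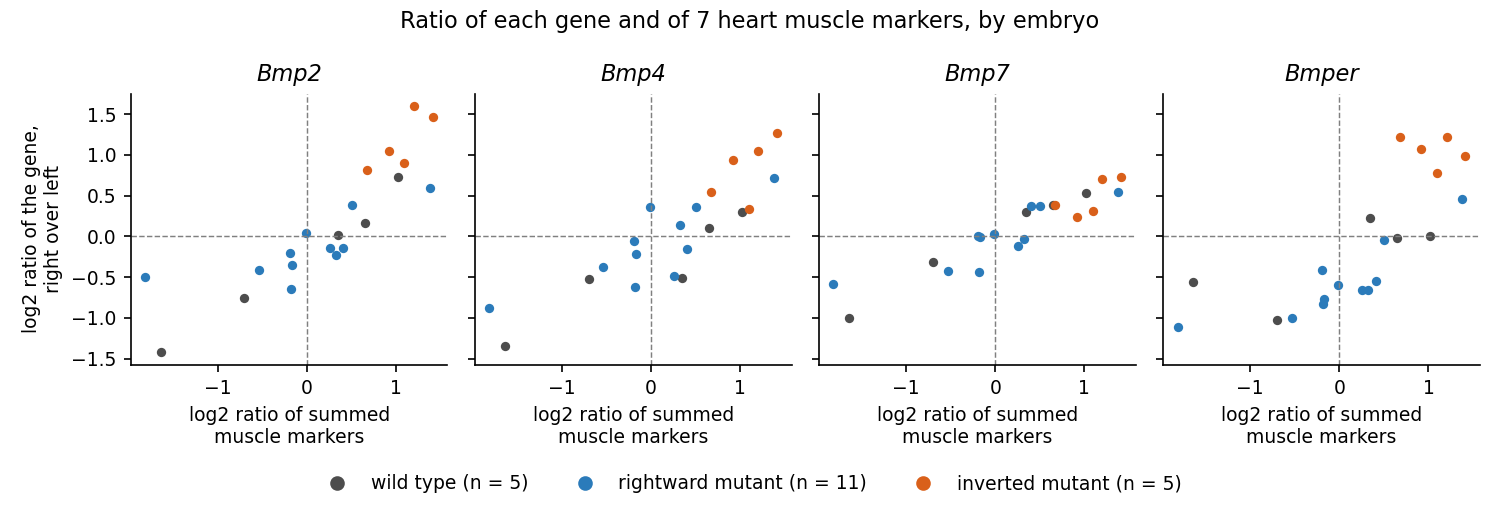
Log2 ratio of right over left for *Bmp2*, *Bmp4*, *Bmp7* and *Bmper* against that of the summed CPM of 7 heart muscle markers, 1 point for each embryo, coloured by group. The genes rise with the muscle ratio (r = 0.93 for *Bmp7*), and the 5 inverted mutants lie above the other embryos for *Bmp2* and *Bmper*.

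The other 6 members did not pass the test in inverted mutants, with adjusted p from 0.33 to 0.88. *Bmp5* and *Bmp6* belong to the same ligand subgroup as *Bmp7*. *Bmp5* (chr9:75682638-75807592, plus strand) was at 20.5, 17.9, 18.4, 21.9 and 17.8 CPM on the left of 2_7, 4_6, 10_3, 18_2 and 32_2 and at 28.0, 18.5, 17.2, 30.6 and 20.95 CPM on the right. It was higher on the right in 4 of 5, at a log2 fold change of 0.24 (SE 0.10, unadjusted p = 0.050). *Bmp6* (chr13:38529065-38684280, plus strand) had a log2 fold change of 0.21 (SE 0.17) and was higher on the right in 2 of 5. *Bmp10* (chr6:87405969-87415616, plus strand) had one of 0.34 (SE 0.29) and was higher on the right in 3 of 5. The fitted values of all 6 ligands were above 0 (median 0.41, against -0.01 over all genes), while those of *Nog*, *Chrd* and *Grem1* were below 0 and not called. The mean log2 ratio of *Bmp5* was 0.22 and stayed between 0.16 and 0.30 without any 1 embryo. The mean log2 ratios of the other uncalled members rested on single embryos. That of *Bmp10* was 0.32, or 0.05 without 18_2, and that of *Bmp6* was 0.20, or 0.08 without 10_3. Among the antagonists, *Grem1* went from -0.42 to -0.04 without 18_2, *Chrd* from -0.47 to -0.16 without 4_6, and *Nog* from -0.28 to 0.22 without 4_6.

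*Nog* (chr11:89191464-89193158, minus strand) varied widely between mutant embryos and had no common side. *Nog* was at 1.85, 7.56, 1.95, 4.11 and 3.20 CPM on the left of these inverted mutants and at 4.39, 1.51, 5.18, 1.97 and 2.00 CPM on the right. The side with more *Nog* therefore changed from embryo to embryo, in 2_7 and 10_3 to the right and in the other 3 to the left. The SD of its log2 ratio was 1.57 in inverted mutants and 1.33 in rightward mutants, the highest of the 10 members in both groups, and 0.62 in wild types, where those of *Bmp10* (1.21), *Bmp2* (0.84), *Bmp4* and *Bmp7* were higher. That of *Chrd* (chr16:20550622-20561857, plus strand) was 0.76, 0.71 and 0.54 in the same order. Both genes have low counts, at medians of 3.31 and 1.76 CPM over the 42 libraries, and the part of counting error in these SDs was not tested. The r with the ratio of summed notochord markers (*T*, *Noto*, *Shh* and *Foxa2*) over 21 embryos was 0.22 for *Nog* and 0.50 for *Chrd*. *Grem1* (chr2:113576509-113589000, minus strand), an antagonist known from limb outgrowth, was at 2.56, 4.72, 5.26, 10.3 and 7.96 CPM on the left and at 3.43, 6.03, 4.196, 2.68 and 5.19 CPM on the right. Its log2 fold change was -0.40 (SE 0.32, adjusted p = 0.63), and its log2 ratio ran from -1.92 in 18_2 to 0.42 in 2_7.

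**Figure D4:**
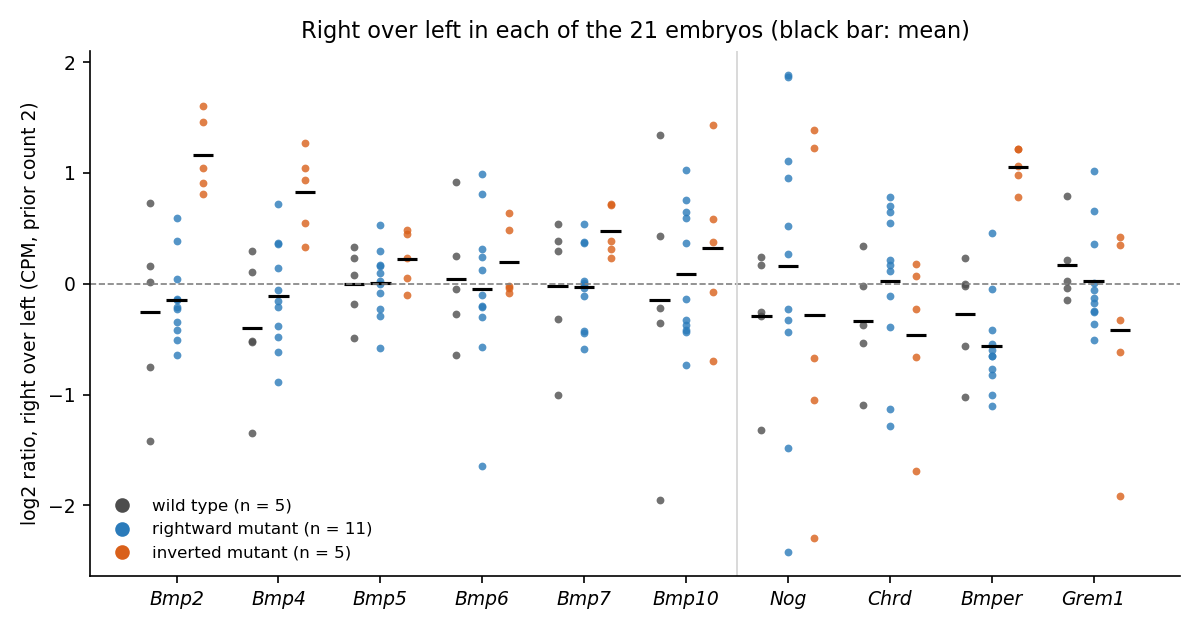
Log2 ratio of right over left (CPM, prior count 2) of the 10 genes in each of the 21 embryos, ligands left and antagonists right of the grey line, with a black bar at the group mean. For *Bmp2* and *Bmper* the 5 inverted mutants lie above all 16 rightward embryos, and *Nog* spreads most, from -2.42 to 1.89.

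**Figure D5:**
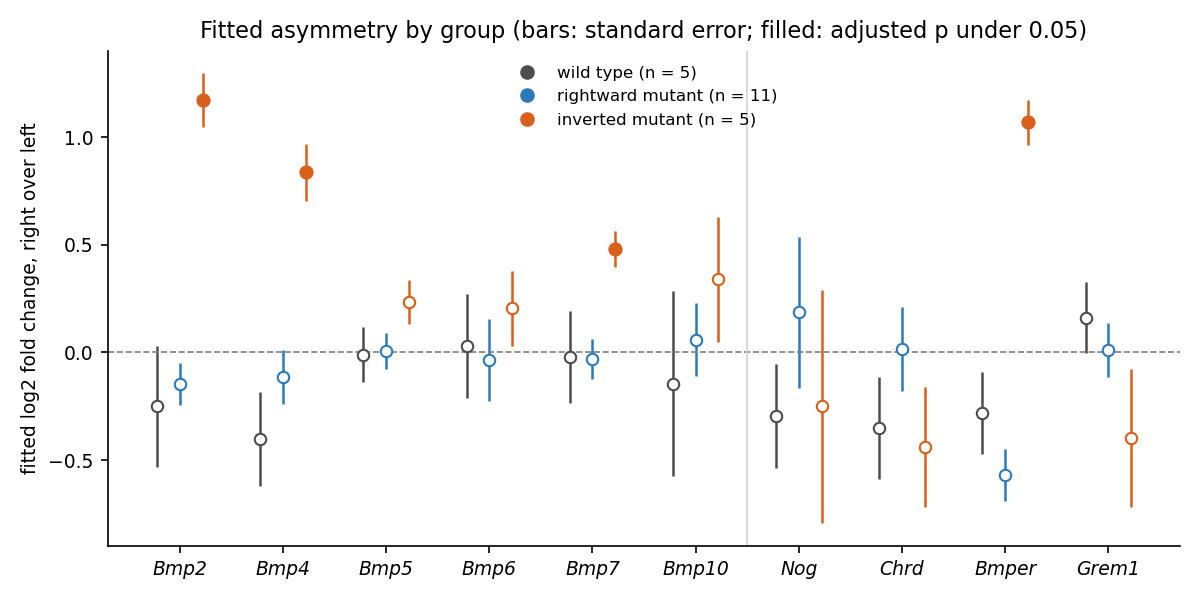
Fitted log2 fold change of right over left for the 10 genes in each group, with bars of 1 standard error. Filled points passed an adjusted p of 0.05, which only *Bmp2*, *Bmp4*, *Bmp7* and *Bmper* did, and only in inverted mutants.

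Whether the asymmetry itself differed between groups was tested over all 42 libraries. Between inverted and rightward mutants, 2 of 10 members differed, *Bmp2* and *Bmper*, both with the higher ratio in inverted mutants. The background was 0.311% of 26335 genes (82 genes), and 0.292% for genes with the higher ratio in inverted mutants (77 genes). *Bmper* had the larger difference of the log2 ratio, at 1.62 (SE 0.21, adjusted p = 0.00059), and *Bmp2* had 1.31 (SE 0.25, adjusted p = 0.018). *Bmp4* differed by 0.94 (SE 0.25, adjusted p = 0.12) and *Bmp7* by 0.50 (SE 0.20, adjusted p = 0.38), neither of which passed. *Bmp4* did pass with DESeq2 (0.023), without 10_1 (0.045) and without 19_4 (0.047). The call of *Bmper* held without any 1 embryo, with an adjusted p of at most 0.0047, and in males alone (0.020). That of *Bmp2* was lost without 4_6 (0.054), 18_2 (0.10) or 32_2 (0.10), in males alone (0.37) and when the pairing by embryo was dropped (0.33).

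Against the wild types, which are fewer, the same pair passed. *Bmp2* differed by 1.41 (SE 0.30, adjusted p = 0.030) and *Bmper* by 1.34 (SE 0.25, adjusted p = 0.018), where the background was 0.513% (135 genes), or 0.456% for genes higher in inverted mutants (120 genes). *Bmp4* had 1.22 (SE 0.29, adjusted p = 0.059), and the others had adjusted p between 0.38 and 0.99. *Bmp4* passed with DESeq2 (0.0055), with the newer quasi-likelihood method (0.046), with no filter on low counts (0.023), with at least 10 counts in every library (0.045), and without 2_2 (0.039), 2_7 (0.0499), 17_7 (0.048), 19_4 (0.035) or 22_4 (0.017), but not without 10_1. This comparison shares the inverted mutants with the one before, and it leaned on single embryos. Without 10_1, whose right library stood apart, the difference was 1.13 for *Bmp2* (adjusted p = 0.084) and 1.26 for *Bmper* (0.054), without 18_2 or 32_2 neither gene passed either, and *Bmp2* was also lost without 8_1 (0.099) or 10_3 (0.053). Without both 2_2 and 10_1, *Bmper* passed (1.26, adjusted p = 0.048) and *Bmp2* did not (1.13, 0.075). In the same test of the difference, 0 of 7 muscle, 0 of 8 heart field and 0 of 4 neural tube markers were called, against rightward mutants or against wild types. Their median differences of the log2 ratio against rightward mutants were 1.07, 0.69 and -1.43, with unadjusted p under 0.05 for 5, 4 and 1 markers. Against wild types these medians were 1.10, 0.87 and -1.37. Of 4 somite markers, *Tcf15* was called lower against wild types (-2.39, SE 0.50, adjusted p = 0.030) and none against rightward mutants, at medians of -1.89 and -1.36. It was the sole call among the marker lists in these tests, and the part of the markers in the differences of *Bmp2* and *Bmper* was not tested. By embryo, the log2 ratios of the 5 inverted mutants were above those of all 16 other embryos for *Bmp2* and *Bmper*, 2 of 10 members, as they were for 0.197% of the 26335 genes, and they were below those of all others for 0 members and 0.0152% of genes.

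The levels of each side were also compared between groups, with sex as a covariate, and no member was called on either side. On the left, 0 of 10 members passed between inverted and rightward mutants (background 0.0121%, 3 of 24838 genes). The 4 members called for their asymmetry had the lowest p of the 10, at log2 fold changes of -0.88 for *Bmper* (SE 0.19, unadjusted p = 0.00011, adjusted p = 0.24), -0.79 for *Bmp2* (SE 0.21, 0.0013, 0.40), -0.55 for *Bmp4* (SE 0.15, 0.0012, 0.40) and -0.38 for *Bmp7* (SE 0.12, 0.0048, 0.43). DESeq2 called *Bmper* (adjusted p = 0.0014) and *Bmp4* (0.032) on this side. On the right, 0 of 10 passed (background 0.00805%, 2 of 24859 genes). There *Bmper* was higher in inverted mutants by 0.71 (SE 0.17, unadjusted p = 0.00050, adjusted p = 0.69), *Bmp2* by 0.44 (SE 0.29), *Bmp4* by 0.36 (SE 0.17) and *Bmp7* by 0.11 (SE 0.15). With 1 embryo left out, the difference ran from 0.33 to 0.63 for *Bmp2*, from 0.24 to 0.43 for *Bmp4* and from 0.05 to 0.16 for *Bmp7*. In means, *Bmper* was at 11.9 ± 2.74 CPM on the left of rightward mutants (SD, n = 11) and at 6.21 ± 0.969 on the left of inverted mutants (n = 5), and on the right at 8.06 ± 1.91 and 13.0 ± 2.25. The higher mean was thus on the left in rightward mutants and on the right in inverted mutants. Between rightward mutants and wild types 0 of 10 members passed on the left (background 0.0242%, 6 genes) and 0 on the right (0.0121%, 3 genes), with 0 members at an unadjusted p under 0.05 on either side.

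The other genes of the pathway were counted in 4 lists. In inverted mutants, 3 of 17 intracellular mediators, inhibitors and response genes were called, all higher on the right. The background in this comparison was 2.04% of 22960 genes, and 1.72% for right-sided genes. They were *Bambi*, a decoy receptor induced by BMP (log2 fold change 0.64, SE 0.08, adjusted p = 0.0076), *Msx2*, a homeobox gene of BMP responses (0.54, SE 0.09, 0.027), and *Smad7*, an inhibitory SMAD (0.47, SE 0.09, 0.039). Of 12 receptors and co-receptors, 1 was called, *Rgma*, a co-receptor also known from the neural tube, which was lower on the right by -0.56 (SE 0.06, adjusted p = 0.0063). No gene was called among 5 other BMP family ligands and 18 other extracellular modulators that could be tested. The median log2 fold change was 0.35 over the 17 response genes and 0.02 over the 12 receptors, against -0.01 over all genes. *Tbx2* and *Tbx3* stand both in the response list and among the canal markers. In the other 9 comparisons 0 genes of these 4 lists were called.

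Among themselves, the 3 called ligands had like ratios across the 21 embryos, with r = 0.93 between *Bmp2* and *Bmp4*, 0.88 between *Bmp2* and *Bmp7* and 0.86 between *Bmp4* and *Bmp7*. *Bmper* followed *Bmp2* at r = 0.88 over all embryos and 0.71 over the 16 rightward embryos. The 5 genes most like each called member, among 11120 genes with a median of at least 5 CPM, were *Prnp*, *Igf2r*, *Fbxo32*, *Mtus1* and *Lmod1* for *Bmp2* (r from 0.95 to 0.97), *Jup*, *Lrrfip1*, *Sec24d*, *Atp1b1* and *Emp2* for *Bmp4* (0.94 to 0.96), *Alpk3*, *Fblim1*, *Myocd*, *Rbm24* and *Nkx2-5* for *Bmp7* (0.95 to 0.96), and *Nptx2*, *Cacna1d*, *Stom*, *Ppargc1a* and *Dpysl3* for *Bmper* (0.89 to 0.93). The genes nearest to *Bmp7* include *Myocd*, *Rbm24*, *Alpk3* and *Nkx2-5*, which are known from heart muscle. In the 16 rightward embryos alone, r was 0.94 to 0.96 for the genes nearest to *Bmp7* and 0.71 to 0.82 for those nearest to *Bmper*. These correlations are given as a description, since the ratios of an embryo come from the same pair of libraries.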

How the data were processed

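The authors trimmed and deduplicated paired reads of poly-A RNA libraries from 10 ng of RNA, mapped them to GRCm39 with STAR and deposited raw counts per Ensembl gene from featureCounts (Subread 2.0.6), 1 column per library. Gene names and positions came from GENCODE vM39 (56310 of 56953 identifiers matched). Groups followed genotype and looping in the labels. Right and left were compared with the quasi-likelihood test of edgeR 4.0.16 (R 4.3.3, TMM factors, genes kept by filterByExpr at a minimum count of 5, embryo as a block), differences of asymmetry as interactions in all 42 libraries, and levels within a side with sex as a covariate. Benjamini-Hochberg adjusted p ran over all genes tested, and called means an adjusted p under 0.05. CPM used TMM effective library sizes, and log2 ratios a prior count of 2. Alternatives were DESeq2 1.42.0, other filters and normalization, males alone, no pairing and each embryo left out, with one pair of embryos left out after the data had been seen. The scripts were tested on simulated data. Sides of an embryo share its number, and the correlation of their deviations from group means over 2000 genes had a median of 0.39 (-0.11 to 0.80). No 2 of the 861 pairs of libraries matched within counting noise. The members and lists were chosen with earlier results of these data known. Named genes are all 10 members, up to 5 called genes per list, and the 5 genes most correlated with each called member. Preparation batches were randomised by the authors, but the labels do not name them, so no batch term could be fitted.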

Additional observations from a re-analysis of the deposited data

Results flagged for a closer look

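The asymmetry of *Bmp2* and *Bmper* differed between groups by the test of the difference itself. The log2 ratio of right over left in inverted mutants was above that in rightward mutants by 1.31 for *Bmp2* and 1.62 for *Bmper*, and above that in wild types by 1.41 for *Bmp2* and 1.34 for *Bmper*. The difference of *Bmper* from rightward mutants passed without any 1 embryo, in males alone and without the pairing. That of *Bmp2* from rightward mutants was lost without 4_6, 18_2 or 32_2, in males alone and without the pairing, and those of both genes from wild types were lost without 10_1, 18_2 or 32_2, in males alone and without the pairing. The median difference from rightward mutants was 1.07 over 7 muscle markers, 0.69 over 8 heart field markers, -1.43 over 4 neural tube markers and -1.36 over 4 somite markers, with none called, and from wild types it was 1.10, 0.87, -1.37 and -1.89, with the somite marker *Tcf15* called. Their part in the differences was not tested. Among 60 sets of 5 embryos (10 members, 2 groups, and the left level, the right level and the ratio), 0 had a sample set apart from the other 4 by the Dixon criterion.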

How the results depend on the processing

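The settings tried were DESeq2, the newer quasi-likelihood method, RLE factors, no filter or at least 10 counts in every library, males alone, no pairing, no sex term and each embryo left out, plus both 2_2 and 10_1 left out, chosen after seeing the data. In wild types and between rightward mutants and wild types 0 members were called under any of them. In rightward mutants DESeq2 called 1 member, and leaving out 1 embryo gave 0 to 1. In inverted mutants males alone gave 0 in place of 4, leaving out 1 embryo 2 to 4, and the others 4. Between inverted and rightward mutants males alone gave 1 in place of 2, dropping the pairing by embryo 1, DESeq2 3 (with *Bmp4*), and leaving out 1 embryo 1 to 3. Between inverted mutants and wild types males alone gave 0 in place of 2, no pairing 0, DESeq2, the newer method and both other filters 3 each (with *Bmp4*), leaving out both 2_2 and 10_1 gave 1, and leaving out any 1 embryo 0 to 3. On the left of inverted against rightward mutants DESeq2 called 2. The block changed no other count of members. No fitted value of *Bmp2*, *Bmp4*, *Bmp7* or *Bmper* in the comparisons with inverted mutants changed sign. Males alone have fewer samples, and the cause of the other shifts was not tested.

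Over all genes, calls in inverted mutants ran from 53 (males alone) to 1755 (DESeq2) and from 138 to 446 without 1 embryo, against 468. For inverted minus rightward mutants they ran from 7 to 456 and from 18 to 192, against 82, and for inverted mutants minus wild types from 3 to 911 and from 17 to 641, against 135, with the same settings at the ends. Rightward mutants had 1 to 32 calls and wild types 0 to 20. For levels, inverted over rightward mutants gave 1 to 104 on the left and 0 to 18 on the right, and rightward mutants over wild types 0 to 20 and 0 to 12. Depth limits *Bmp10*, *Nog*, *Chrd* and *Bmp6* most, whose lowest counts in a library were 8, 28, 34 and 26.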
